A study of Mus musculus with 56 samples.

Results

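The genes described here encode the Wnt ligands, their receptors and co-receptors, the R-spondins, the antagonists of the pathway and its nuclear factors. They were chosen by a rule on gene names, with earlier results of these data known. It took every gene whose symbol is that of a Wnt, a Frizzled, Lrp5 or Lrp6, an Sfrp, a Dkk, Wif1, Apcdd1, an Nkd, an Axin, Lef1, a Tcf7-type factor, Notum, Rnf43, Sp5, an R-spondin or an Lgr receptor, and that had a probe carrying that symbol alone. The rule found 54 of the 15224 genes measured, each read by 1 probe: 19 ligands, 9 Frizzled receptors, 2 co-receptors, 5 R-spondin or Lgr genes, 9 secreted antagonists, 6 membrane or intracellular antagonists and 4 transcription factors. Dkk1, Fzd9, Lgr4, Lgr6 and Tcf7 were not analysed here.

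RNA was hybridised to whole-transcript Affymetrix arrays for 56 samples of mouse brain tumour, cerebellum and cultured cells, all on an FVB/N background. There were 32 medulloblastomas from GTML mice, whose MYCN transgene responds to a tetracycline transactivator driven from the Glt1 promoter, and 5 cerebella of postnatal day 7 (P7). The P7 cerebella are labelled normal and came from GTML mice given doxycycline, the drug that keeps the transgene off. The rest of the study is a transplant series of 18 arrays: neural stem cells (NSCs) were transduced with N-myc(T58A), a stabilised mutant of N-myc, and gave 9 orthotopic tumours, 3 from cerebellar NSCs of embryonic day 16 (E16C), 3 from cerebellar NSCs of postnatal day 0 (P0C) and 3 from forebrain NSCs of the same day (P0F). The other 9 arrays of that series are cultures with 1 array each: cells derived from an E16C, a P0C and a P0F tumour, N-myc(T58A)-transduced NSCs of E16C and P0C, and control NSCs transduced with green fluorescent protein (GFP) of E16C, of P0F and, once sorted for GFP and once unsorted, of P0C. A culture derived from a GTML tumour completes the set. The labels call the tumours behind the E16C and P0C cultures medulloblastomas and the one behind the P0F culture a glioma. Tumours and P7 cerebella are numbered as biological replicates, while each culture is a single array. No source used here gives tumour ages, recipients or the number of animals behind a culture.

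Wnt proteins are secreted, lipid-modified ligands that bind a Frizzled receptor together with Lrp5 or Lrp6. In the canonical branch this stops the Axin and Apc complex from destroying beta-catenin, which then acts with Lef1 and the Tcf7-type factors on target genes, and several of those targets, among them Axin2, Nkd1, Apcdd1, Rnf43, Notum and Sp5, damp or shape the pathway in turn. Wnt5a and its relatives also signal without beta-catenin. R-spondins bind Lgr receptors and protect Frizzled from removal by Rnf43, whereas the Sfrp proteins, Wif1 and Dkk proteins act outside the cell on ligands or on Lrp. In the cerebellum the pathway takes part in the patterning of the early hindbrain, and an activated canonical pathway defines a subgroup of human medulloblastoma, distinct from the group with photoreceptor genes.

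Values are deposited log2 levels, so a difference of 1 is a doubling, and array medians lay between 7.86 and 8.25. The probes of this family were dim: 44 of the 54 averaged less than the median of all values (8.00) and 8 averaged less than their percentile 25 (6.30), and a gene was tested only when it exceeded the 6.30 level in enough arrays to fill the smaller group. Several arrays stood apart on marker genes. GTML tumours 20, 22, 30 and 31 had a mean level of 5 photoreceptor genes of 6.70, 8.61, 9.95 and 7.62, against 11.31 to 12.92 in the other 28 GTML tumours and 6.12 to 6.21 in P7 cerebella. The P0F GFP NSCs held the photoreceptor genes Crx at 10.19 and Rbp3 at 10.10, while the other 3 GFP NSC arrays had Crx at 6.33 to 6.71. The E16C tumour cells had Sox2, a neural stem cell factor, at 9.25 and Dcn, a fibroblast gene, at 11.40, against Sox2 of 12.23 and 11.63 and Dcn of 6.16 and 5.97 in the P0C and P0F tumour cells. The 2 P0C GFP arrays carried more of the macrophage gene Cd68 (10.74 and 11.36) than the E16C (8.40) and P0F (7.12) GFP arrays, whereas Csf1r (6.78 and 6.76) and Aif1 (6.12 and 6.45) of the same list were no higher there than in the E16C array (6.82 and 6.53). The cell type tags of 3 E16C arrays (tumour 3, the tumour cells and the N-myc NSCs) are out of step with their titles and source names, and the titles were followed.

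The largest differences between GTML tumours and P7 cerebella lay in 3 antagonists, Sfrp1, Apcdd1 and Nkd1, and a ligand, Wnt5a, all lower in the tumours. Sfrp1, which binds Wnt ligands outside the cell, was 15.9-fold lower in the tumours, the membrane inhibitor Apcdd1 10.9-fold lower, the Dishevelled-binding inhibitor Nkd1 7.24-fold lower, the ligand Wnt5a 6.22-fold lower and the Axin2 gene, a common readout of canonical signalling, 1.71-fold lower. Against these falls stood 2 large rises, in the secreted antagonist Sfrp4 (3.37-fold) and in Nkd2 (2.83-fold), the paralogue of Nkd1. In bulk tissue, fewer cells of a type and less RNA per cell cannot be told apart. Of the 54 members 49 could be tested with limma, and 19 were higher, 16 lower and 14 not called at an adjusted p of 0.05. For 5 of the 19 higher members (Wnt3a, Wnt2, Wnt6, Rspo4 and Sfrp5) every cerebellum was under 6.30, so they reached the test only through their tumour levels, and the count of higher members is a description. Of all 4036 genes called higher 18.2% had every cerebellum at or under that level. Wnt8a and Wnt11, with 2 and 3 of 5 cerebella above it, also passed the filter only with their tumours, which makes 7 of the 19. The share of all genes under this wider rule is not given here. On the lower side Wnt5a reached the test only through the cerebella, with 3 of 32 tumours above 6.30. Among all 12275 genes tested, 32.9% were called higher and 24.8% lower, against 38.8% and 32.7% of the members. The median difference was 0.08 over the members and 0.10 over all genes, and centring the arrays or quantile normalization moved the median of all genes to 0.25 or 0.14.

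Among the membrane and intracellular antagonists all 6 passed the test, 4 lower and 2 higher. Apcdd1 lay at 5.51 to 7.90 (median 6.34) in the 32 GTML tumours and at 9.85, 9.87, 9.83, 9.88 and 9.97 in the 5 P7 cerebella. The Apcdd1 log2 difference was -3.44 ± 0.26 (SE, adjusted p = 2.43e-13). For Nkd1 the tumours ran from 7.30 to 9.61, median 7.53, and the P7 cerebella had 10.59, 10.56, 10.62, 10.23 and 10.31. The Nkd1 log2 difference was -2.86 ± 0.18 (SE, adjusted p = 8.06e-16). In both genes no tumour reached the lowest P7 cerebellum, and for Nkd1 a single tumour, 31 at 9.61, stood above the next one, 20 at 7.92. Axin2, the scaffold of the destruction complex that canonical signalling induces, stood at 6.96 to 7.89 (median 7.50) in the tumours, against 8.28, 8.42, 8.21, 8.12 and 8.21 in the cerebella, a log2 difference of -0.77 ± 0.10 (SE, adjusted p = 2.82e-08), again without overlap. Rnf43, the ubiquitin ligase that removes Frizzled from the membrane, fell less: its tumours spanned 6.13 to 7.36 (median 6.53), its cerebella measured 6.82, 7.07, 7.07, 6.91 and 6.96, and the groups overlapped. The Rnf43 log2 difference was -0.40 ± 0.12 (SE, adjusted p = 0.0047). Axin1, the constitutive counterpart of Axin2, was on the other side, at 8.40 to 9.32 (median 9.00) in tumours and 8.61, 8.54, 8.58, 8.39 and 8.58 in cerebella. The Axin1 log2 difference was 0.38 ± 0.10 (SE, adjusted p = 0.00161). Nkd2 ranged widely in the tumours, 6.53 to 9.45 (median 8.42), and was 6.49, 6.55, 6.81, 7.14 and 6.93 in the cerebella. The Nkd2 log2 difference was 1.50 ± 0.36 (SE, adjusted p = 0.000605). Tumours 20, 30 and 31 had Nkd2 inside the range of the cerebella (6.75, 6.97 and 6.53), as had 1 of the other 28, and without tumours 20, 22, 30 and 31 its difference was 1.69. A call of no overlap together with an adjusted p under 0.05 was reached by 4.17% of all genes on the higher side and 5.79% on the lower side. It was reached by 5 members, all lower: Sfrp1, Apcdd1, Nkd1, Wnt5a and Axin2. Of these Wnt5a reached the test only through the cerebella.

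**Figure D1:**
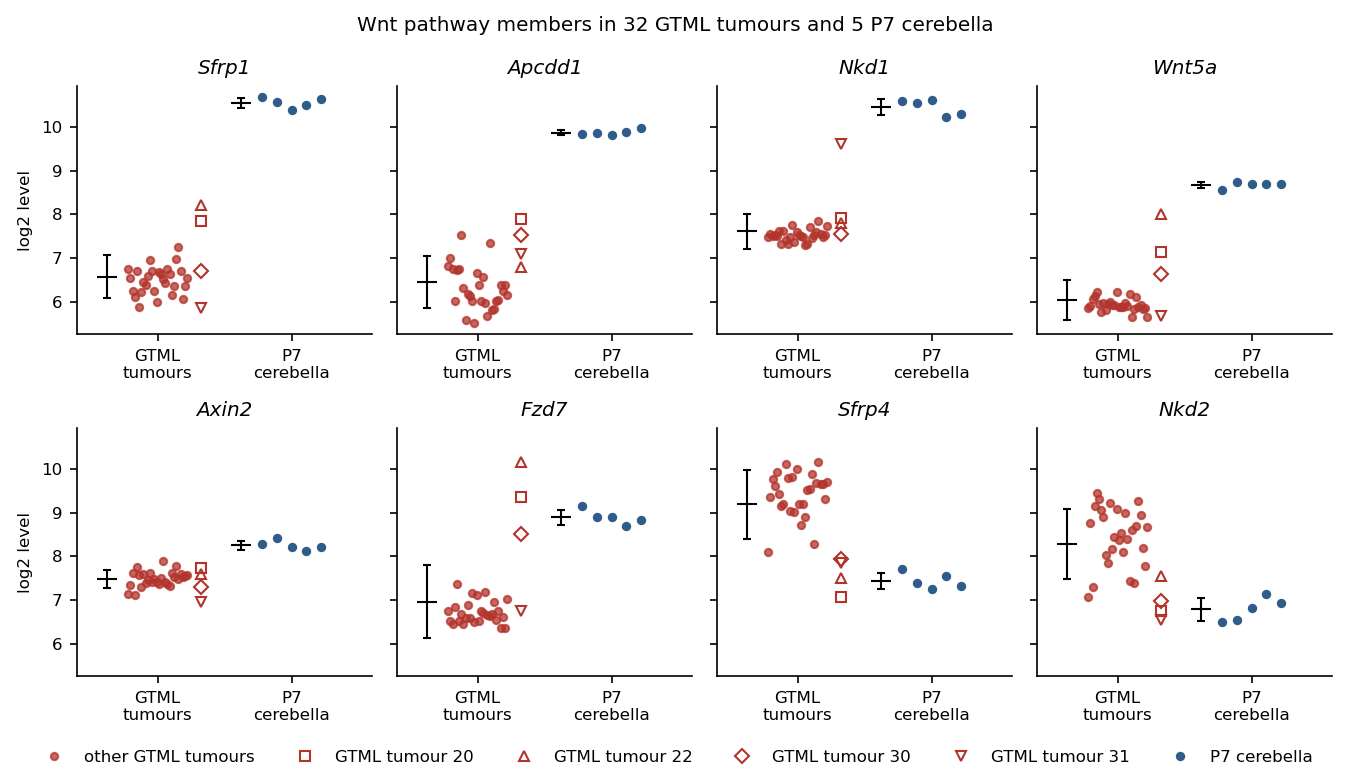
Log2 level (y axis) of 8 members in each of 32 GTML tumours and 5 P7 cerebella, 1 point an array, with the mean and SD of each group drawn as a bar to its left; open symbols mark GTML tumours 20, 22, 30 and 31, and levels of different genes are not to be compared. No tumour reached the lowest cerebellum for Sfrp1, Apcdd1, Nkd1, Wnt5a or Axin2, while Sfrp4 and Nkd2 were higher on average in the tumours.

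The secreted antagonists moved apart. Sfrp1 was at 5.85 to 8.21 (median 6.54) in the tumours and at 10.69, 10.58, 10.39, 10.51 and 10.65 in the cerebella, a log2 difference of -3.99 ± 0.22 (SE, adjusted p = 2.55e-17), the difference of largest size among the members. Its paralogue Sfrp4 ran the other way, with 7.06 to 10.17 (median 9.40) in the tumours and 7.72, 7.38, 7.25, 7.54 and 7.32 in the cerebella. The Sfrp4 log2 difference was 1.75 ± 0.35 (SE, adjusted p = 6.62e-05). The other 28 tumours and tumour 31 each had more Sfrp4 than any cerebellum, whereas tumour 22 at 7.50 lay within their range and tumour 20 at 7.06 below it. Dkk3, a divergent Dkk family protein, was at 6.42 to 9.11 (median 7.61) in tumours and 8.98, 9.27, 9.38, 9.27 and 9.34 in cerebella, a log2 difference of -1.63 ± 0.23 (SE, adjusted p = 3.62e-07), and only GTML tumour 3 reached the cerebella. Wif1, which binds Wnt ligands directly, had a tumour median of 6.10 and cerebella of 7.33, 7.84, 7.61, 7.74 and 8.02. The Wif1 log2 difference was -1.35 ± 0.41 (SE, adjusted p = 0.00545). The range of its tumours was set by tumours 20 and 30, at 10.01 and 9.66, because the other 28 lay between 5.83 and 6.71, all below the cerebella; without tumours 20, 22, 30 and 31 the difference was -1.60. The Sfrp5 call was narrow, 0.32 ± 0.13 for Sfrp5 (adjusted p = 0.0423), and was lost without P7 cerebellum 1 (adjusted p = 0.191), 2 (0.0548) or 3 (0.141). Sfrp5 was under 6.30 in 25 of the 32 tumours as well as in all 5 cerebella. Not called were 0.22 ± 0.35 for Sfrp2 (adjusted p = 0.603) and 0.03 ± 0.11 for Dkk2 (adjusted p = 0.854), and Dkk4 and Notum were too dim to test.

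Of the 9 Frizzled receptors 3 were lower, 2 higher and 4 not called. Fzd7 had a tumour median of 6.70 against 9.16, 8.90, 8.91, 8.69 and 8.83 in the cerebella. The Fzd7 log2 difference was -1.93 ± 0.37 (SE, adjusted p = 4.08e-05). Every one of the other 28 tumours, at 6.35 to 7.36, was below the lowest cerebellum, as were tumours 30 (8.50) and 31, while tumours 20 and 22 had 9.36 and 10.16, above every cerebellum. For Fzd1 the high tumours were 20 and 30, with a tumour median of 7.60, those 2 tumours at 9.81 and 9.46, the other 28 at 7.15 to 7.94 and cerebella of 9.01, 9.23, 8.95, 9.25 and 9.17. The Fzd1 log2 difference was -1.42 ± 0.25 (SE, adjusted p = 1.3e-05). Fzd3, which acts with the planar polarity proteins in axon growth, was at 6.76 to 10.86 (median 10.19) in tumours and 10.88, 11.02, 10.89, 10.73 and 10.83 in cerebella, a log2 difference of -0.83 ± 0.29 (SE, adjusted p = 0.0163), and its lowest value belonged to tumour 22. The higher receptors were Fzd2, 7.65 to 9.58 (median 9.12) in tumours and 8.22, 8.46, 8.40, 8.36 and 8.47 in cerebella, a log2 difference of 0.61 ± 0.21 (SE, adjusted p = 0.0125), and Fzd5, 6.94 to 8.15 (median 7.47) in tumours and 6.73, 6.70, 7.02, 7.08 and 7.14 in cerebella. The Fzd5 log2 difference was 0.54 ± 0.12 (SE, adjusted p = 0.000298). Fzd2 had a blank cell in tumour 31, and when blanks were filled with a low value the call was lost (adjusted p = 0.426). Differences that did not pass were -0.74 ± 0.34 for Fzd6 (adjusted p = 0.0612), 0.42 ± 0.21 for Fzd10 (adjusted p = 0.0848), 0.22 ± 0.32 for Fzd4 (adjusted p = 0.576) and 0.05 ± 0.15 for Fzd8 (adjusted p = 0.803). The co-receptor Lrp6 was slightly higher, 8.70 to 9.45 (median 8.95) in tumours and 8.75, 8.85, 8.69, 8.58 and 8.68 in cerebella, a log2 difference of 0.26 ± 0.08 (SE, adjusted p = 0.00974), and Lrp5 was not called. The Lrp5 log2 difference was -0.26 ± 0.20 (SE, adjusted p = 0.266).

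Of the 4 transcription factors 3 were lower. Tcf7l2 was at 5.90 to 7.98 (median 6.39) in tumours and 7.47, 7.56, 7.23, 7.48 and 7.50 in cerebella. The Tcf7l2 log2 difference was -0.88 ± 0.23 (SE, adjusted p = 0.00178). Sp5, a zinc finger factor induced by canonical signalling, had 6.72 to 7.69 (median 7.18) in tumours and 7.61, 7.51, 7.57, 7.57 and 7.48 in cerebella, a log2 difference of -0.39 ± 0.10 (SE, adjusted p = 0.00158), and Tcf7l1, mostly a repressor, had 6.29 to 7.51 (median 6.57) in tumours and 6.95, 7.11, 7.02, 6.82 and 6.99 in cerebella. The Tcf7l1 log2 difference was -0.38 ± 0.10 (SE, adjusted p = 0.00222). Tcf7l1 and Rnf43 lost their calls when arrays were centred on their medians (adjusted p = 0.051 and 0.0591). Lef1 was not called: 6.18 to 8.02 (median 7.06) in tumours, 6.88, 7.13, 7.05, 7.13 and 7.22 in cerebella. The Lef1 log2 difference was 0.08 ± 0.22 (SE, adjusted p = 0.765).

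Promoter sequences of 5 members were searched for the letters that Lef1 and Tcf7-type factors are known to bind. They run from 250 bases before to 50 bases after a RefSeq transcription start (GRCm38.p6), and capitals mark CTTTGAT or CTTTGAA, the related CTTTGTT or CTTTGTA, and the E-box CACGTG, the letters bound by MYC family proteins, on either strand. Nkd1 and Axin2 are shown as feedback genes that fell, Sp5 as a target that fell, Fzd7 as a receptor that fell and Lef1 as the nuclear factor that recurs in the transplant series; for Lef1, with 4 start sites, the window with most matches was taken.
Nkd1, chr8:88527383-88527682, plus strand: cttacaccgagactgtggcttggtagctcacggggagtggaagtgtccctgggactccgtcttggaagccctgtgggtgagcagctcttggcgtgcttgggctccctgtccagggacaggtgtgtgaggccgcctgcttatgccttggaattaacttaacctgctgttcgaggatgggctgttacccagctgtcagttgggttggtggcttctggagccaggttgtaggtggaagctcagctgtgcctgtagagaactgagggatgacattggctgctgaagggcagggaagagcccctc
Axin2, chr11:108920099-108920398, plus strand: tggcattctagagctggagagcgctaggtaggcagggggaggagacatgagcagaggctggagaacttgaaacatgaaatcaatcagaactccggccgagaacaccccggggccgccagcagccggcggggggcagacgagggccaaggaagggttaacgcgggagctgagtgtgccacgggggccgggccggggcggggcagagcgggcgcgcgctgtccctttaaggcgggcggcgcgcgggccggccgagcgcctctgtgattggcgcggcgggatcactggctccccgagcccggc
Sp5, chr2:70474673-70474972, plus strand: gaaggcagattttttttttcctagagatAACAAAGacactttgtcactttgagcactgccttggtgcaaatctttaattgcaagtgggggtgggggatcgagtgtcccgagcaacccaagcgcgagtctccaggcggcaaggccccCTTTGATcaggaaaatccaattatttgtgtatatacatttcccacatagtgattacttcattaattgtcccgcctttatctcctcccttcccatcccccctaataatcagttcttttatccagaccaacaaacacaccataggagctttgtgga
Fzd7, chr1:59481897-59482196, plus strand: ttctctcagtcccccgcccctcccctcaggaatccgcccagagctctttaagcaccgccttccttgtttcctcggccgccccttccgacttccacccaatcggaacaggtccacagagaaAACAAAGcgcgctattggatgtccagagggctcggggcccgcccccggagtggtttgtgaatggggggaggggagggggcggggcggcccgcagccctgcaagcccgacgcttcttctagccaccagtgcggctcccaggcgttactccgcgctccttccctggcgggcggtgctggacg
Lef1, chr3:131156044-131156343, plus strand: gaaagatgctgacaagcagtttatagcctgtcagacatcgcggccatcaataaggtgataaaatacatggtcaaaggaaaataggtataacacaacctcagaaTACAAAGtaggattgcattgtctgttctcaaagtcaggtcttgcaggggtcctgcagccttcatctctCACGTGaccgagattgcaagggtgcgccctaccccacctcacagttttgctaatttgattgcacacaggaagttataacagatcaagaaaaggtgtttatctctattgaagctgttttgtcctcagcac
Sp5 held 2 such Lef or Tcf motifs, Fzd7 and Lef1 held 1 each, Lef1 also held an E-box, and none of these letters occurred in the Nkd1 and Axin2 windows. Of 34 members with an entry, giving 42 windows, 16.7% of windows held a Lef or Tcf motif, against 16.9% of all 32851 windows, and 9.52% held an E-box, against 7.15%.

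Among the R-spondins and Lgr receptors 2 of 5 were higher. Rspo4 was at 5.73 to 7.42 (median 6.61) in tumours and 5.85, 6.01, 5.83, 6.06 and 6.03 in cerebella, all 5 of them under the 6.30 level of the filter, a log2 difference of 0.71 ± 0.15 (SE, adjusted p = 0.000101), and Rspo1 at 6.86 to 8.04 (median 7.47) in tumours and 7.14, 7.10, 7.22, 7.19 and 7.32 in cerebella, a log2 difference of 0.28 ± 0.10 (SE, adjusted p = 0.0175), a call that was lost without P7 cerebellum 2 (adjusted p = 0.0544). Lgr5, the R-spondin receptor known as a stem cell marker, spread over 5.72 to 9.03 (median 7.44) in the tumours, and 4 of 5 cerebella had 7.39, 7.41, 7.32 and 7.31 and cerebellum 1 had 8.04. The Lgr5 log2 difference was -0.10 ± 0.38 (SE, adjusted p = 0.833). The sign of the Lgr5 difference turned under 4 alternative settings, given with the processing. Not called either were 0.02 ± 0.22 for Rspo2 (adjusted p = 0.932) and 0.23 ± 0.18 for Rspo3 (adjusted p = 0.287).

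Ligands made up most of the higher calls, all of them small. Of 19 ligands 16 were tested, 10 were higher by 0.27 to 0.48, 3 were lower and 3 were not called, while Wnt1, Wnt8b and Wnt16 were too dim to test. The 10 higher ligands were Wnt3a, Wnt9a, Wnt2, Wnt11, Wnt5b, Wnt10a, Wnt6, Wnt8a, Wnt2b and Wnt9b, and both group means of each lay under the median of all values. In 3 of the 10 (Wnt3a, Wnt2 and Wnt6) all 5 cerebella were under 6.30, and in Wnt8a and Wnt11 only 2 and 3 cerebella were above it, so these 5 reached the test through their tumours. Wnt3a was at 6.23 to 7.36 (median 6.69) in tumours and 6.14, 6.11, 6.28, 6.14 and 6.28 in cerebella. The Wnt3a log2 difference was 0.48 ± 0.12 (SE, adjusted p = 9e-04). Wnt8a had 6.29 to 7.08 (median 6.59) in tumours and 6.13, 6.17, 6.35, 6.36 and 6.20 in cerebella. The Wnt8a log2 difference was 0.37 ± 0.09 (SE, adjusted p = 0.00106). The others gave 0.43 ± 0.15 for Wnt9a (adjusted p = 0.0134), 0.41 ± 0.11 for Wnt2 (adjusted p = 0.00255), 0.40 ± 0.16 for Wnt11 (adjusted p = 0.0294), 0.40 ± 0.11 for Wnt5b (adjusted p = 0.00222), 0.39 ± 0.13 for Wnt10a (adjusted p = 0.0103), 0.37 ± 0.13 for Wnt6 (adjusted p = 0.0125), 0.31 ± 0.11 for Wnt2b (adjusted p = 0.0167) and 0.27 ± 0.09 for Wnt9b (adjusted p = 0.00984). Wnt6 lost its call under quantile normalization (0.18, adjusted p = 0.0915) and with filled blanks (0.30, adjusted p = 0.267), and Wnt11 under quantile normalization (0.31, adjusted p = 0.0864). The calls of Wnt11, Wnt2b and Wnt9b hung on single cerebella: Wnt11 missed the threshold without cerebellum 1, 2, 3 or 5 (adjusted p = 0.0536, 0.0685, 0.0685 and 0.0506), Wnt2b without 1 or 2 (0.0503 and 0.0606) and Wnt9b without 1 (0.0523). Small rises of dim genes were common on these arrays. Of 4676 tested genes with a mean under the median of all values 38.2% were higher and 27.3% lower, against 34.1% and 36.6% of the 41 members at that level, and 14 of the 19 higher members were of this kind.

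The lower ligands were few and included a large change. Wnt5a, the main non-canonical ligand, was at 5.64 to 8.00 (median 5.92) in the tumours and 8.56, 8.75, 8.69, 8.70 and 8.71 in the cerebella. The Wnt5a log2 difference was -2.64 ± 0.20 (SE, adjusted p = 2.69e-13). Its highest tumour was number 22. Only 3 of the 32 tumours were above 6.30, so Wnt5a reached the test through the cerebella. Wnt7b had 6.44 to 7.40 (median 6.87) in tumours and 7.32, 7.40, 7.65, 7.59 and 7.67 in cerebella, a log2 difference of -0.69 ± 0.10 (SE, adjusted p = 6.56e-07), with overlap only through tumour 22 at 7.40. Wnt3, a ligand of cerebellar Purkinje cells and granule neurons, was at 5.89 to 7.92 (median 6.30) in tumours and 7.25, 6.95, 7.11, 7.05 and 7.31 in cerebella, a log2 difference of -0.72 ± 0.18 (SE, adjusted p = 0.00126), and its 2 tumours above the cerebella were tumours 20 (7.67) and 30 (7.92). Wnt7a, a ligand of granule neurons and of the brain vasculature, missed the threshold, a log2 difference of -0.41 ± 0.21 (SE, adjusted p = 0.0873): all of the other 28 tumours (6.10 to 6.71) were below the lowest cerebellum at 6.76, while tumours 20, 22 and 30 had 8.04, 6.99 and 8.14. Without tumours 20, 22, 30 and 31 the Wnt7a difference was -0.53 (adjusted p = 2.69e-06). The remaining ligands, not called, gave -0.08 ± 0.16 for Wnt4 (adjusted p = 0.673) and 0.11 ± 0.13 for Wnt10b (adjusted p = 0.509).

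**Figure D2:**
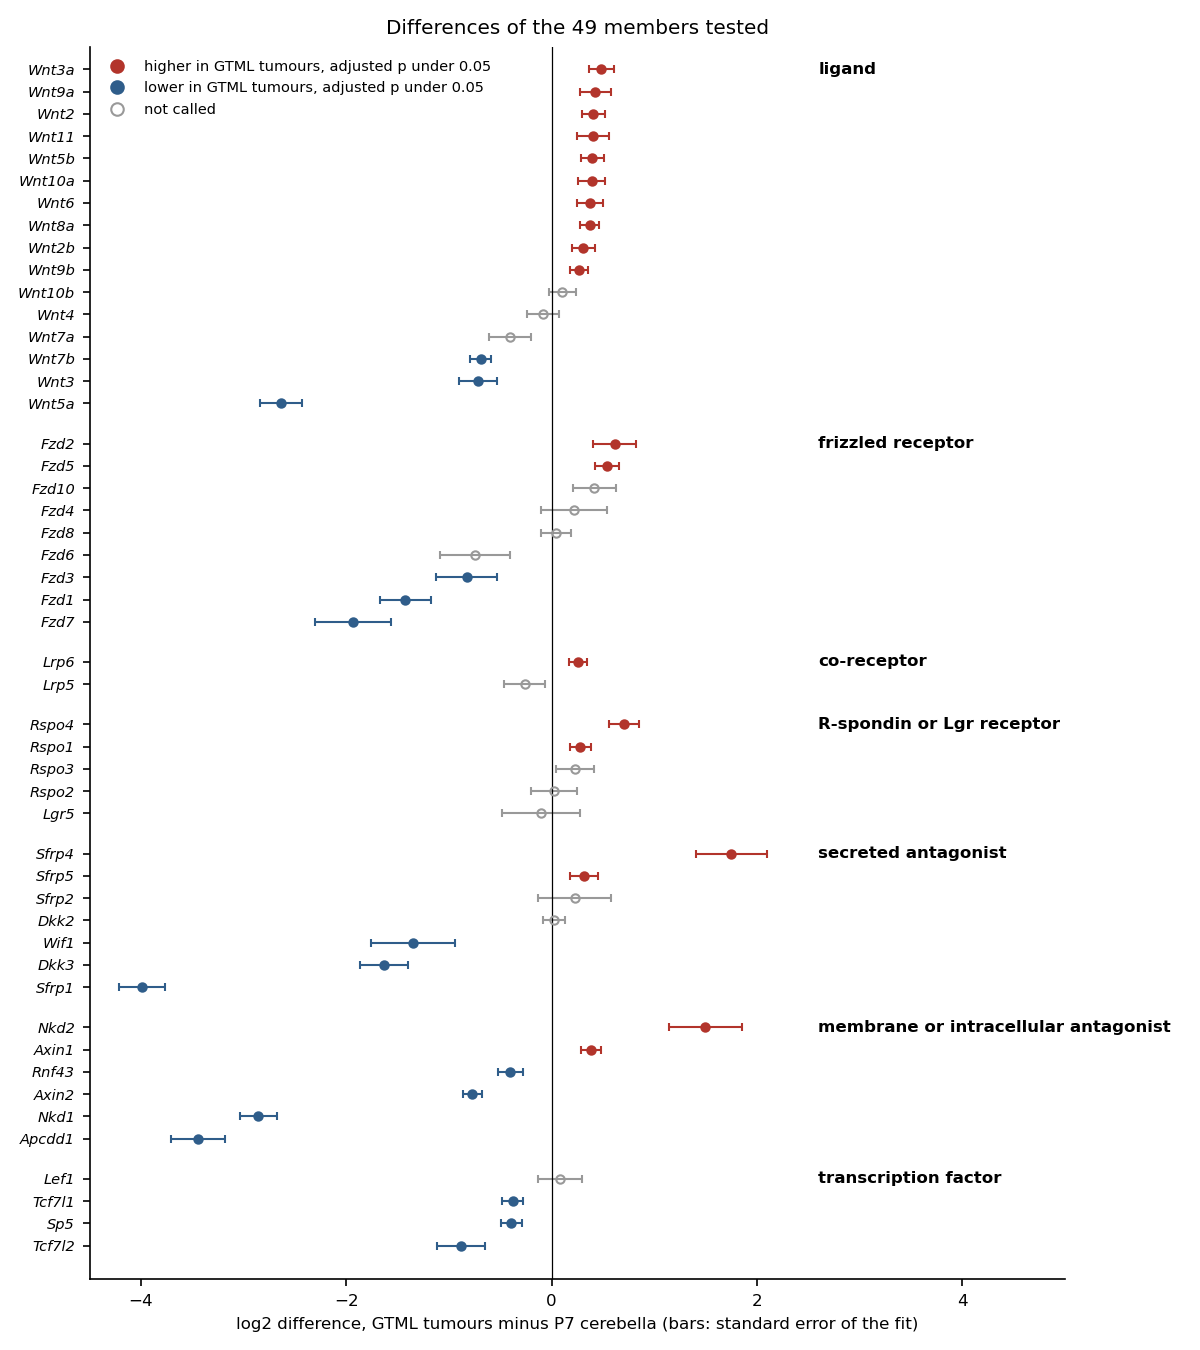
Log2 difference of GTML tumours minus P7 cerebella (x axis) with its standard error for the 49 members tested (y axis), grouped by role; filled points passed an adjusted p of 0.05. The large differences lie on the lower side (Sfrp1, Apcdd1, Nkd1 and Wnt5a), and the 10 higher ligands cluster between 0.27 and 0.48.

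Marker genes of other cell types differed between the groups too. On the mean log2 level of a marker list, the other 28 GTML tumours had 5.42 to 6.71 for Purkinje cells (3 of 3 markers measured), against 10.86 to 11.30 in P7 cerebella. For astrocytes and Bergmann glia (6 of 6) the 28 tumours had 6.74 to 8.26, against 10.26 to 10.39 in cerebella. For granule neuron precursors (4 of 4) they had 6.82 to 7.95, against 10.53 to 10.73. For oligodendrocytes (4 of 5) and choroid plexus (4 of 5) they had 6.77 to 9.40 and 5.71 to 8.30, against 9.23 to 10.34 and 8.22 to 9.85 in cerebella. Tumours 20 and 30 were at 11.64 and 11.35 for Purkinje cells and 10.59 and 10.35 for astrocytes, and these are the tumours with high Wif1, Fzd1, Wnt3 and Wnt7a. Tumour 22 had the highest fibroblast score, 11.07, and endothelial score, 9.05, of all GTML tumours, together with its high Wnt5a, Fzd7 and Sfrp1. The part of these cell types in the differences above was not tested. Leaving out all 4 tumours gave 20 of 49 members higher and 18 lower, while 43.2% of all genes were higher and 31.1% lower in that fit. The differences without them were -4.07 for Sfrp1, -3.57 for Apcdd1, -2.94 for Nkd1, -2.75 for Wnt5a, -0.76 for Axin2, -2.18 for Fzd7, -1.57 for Fzd1, -0.82 for Wnt3 and 1.98 for Sfrp4.

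A list of other pathway genes was made with earlier results of these data known, so its counts are only a description. Of 42 measured among 49 listed, 5 (11.9%) were higher in GTML tumours and 20 (47.6%) lower, against 32.9% and 24.8% of all genes. The median difference was -0.31 over the list and 0.10 over all genes. Apc2, the neuronal relative of Apc, gave -2.84 ± 0.27, adjusted p = 5.89e-11, the Wnt5a receptor Ror1 -1.96 ± 0.36, adjusted p = 1.94e-05, the palmitoyl transferase Porcn, which every Wnt needs for secretion, -1.79 ± 0.27, adjusted p = 1.07e-06, and Apc -1.28 ± 0.10, adjusted p = 9.43e-13. On the higher side were Cxxc4, an inhibitor of Dishevelled (1.70 ± 0.19, adjusted p = 4.51e-09), the co-repressor Tle1 (0.95 ± 0.32, adjusted p = 0.01), Kremen2 (0.62 ± 0.11, adjusted p = 1.87e-05), Dvl2 (0.36 ± 0.12, adjusted p = 0.0124) and Sost (0.32 ± 0.12, adjusted p = 0.0186). Beta-catenin itself, Ctnnb1, was slightly lower (-0.21 ± 0.09, adjusted p = 0.0382).

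Among the 32 GTML tumours the members that varied most were Wif1, Lgr5, Fzd7, Nkd2 and Sfrp2, with SDs of 0.93, 0.86, 0.84, 0.81 and 0.81, against a median SD of 0.33 over the members and 0.30 over all genes. Without tumours 20, 22, 30 and 31 the SDs were 0.19 for Wif1 and 0.26 for Fzd7, but 0.83 for Lgr5, 0.66 for Nkd2 and 0.63 for Sfrp2. Over the other 28 tumours Lgr5 ran from 5.72 to 9.03, and Sfrp2 from 7.04 to 10.06. The culture derived from a GTML tumour, a single array with no test, had Fzd6 at 9.68, Lef1 at 9.18, Lgr5 at 9.47 and Tcf7l1 at 7.97, above all 37 tumours and cerebella, and Fzd8 at 6.81 and Sfrp4 at 6.07, below all of them. That is 7.41% and 3.7% of the members, against 13.8% and 10.2% of all genes. Its photoreceptor score was 10.13, below that of the 28 tumours, and its labelling protocol is not clear from the labels.

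**Figure D3:**
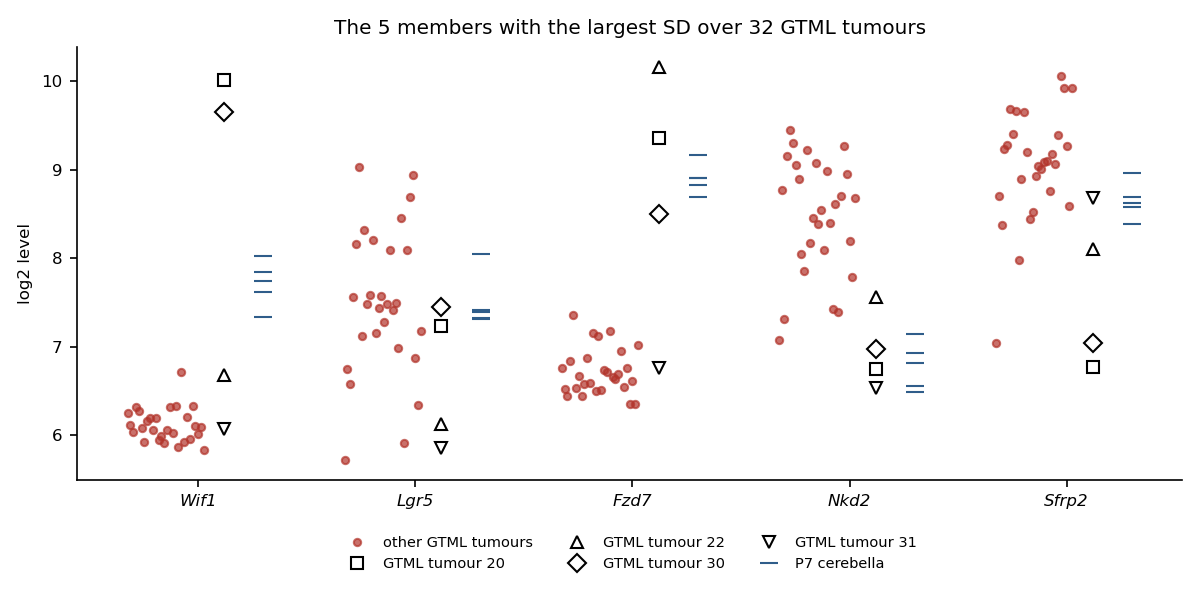
Log2 level (y axis) of the 5 members with the largest SD over 32 GTML tumours, 1 point an array, with tumours 20, 22, 30 and 31 as open symbols and the 5 P7 cerebella as dashes to the right. For Wif1 the high values are those of tumours 20 and 30 (10.01 and 9.66), while Lgr5 ranges widely over the other 28 tumours (SD 0.83).

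In the transplant series the first question was whether tumours differ by the age and region of the stem cell. No member passed the test between P0C and E16C tumours, nor between P0F and P0C tumours, in a limma model of the 9 tumours. Of 47 members tested, 5 in the P0C to E16C comparison and 4 in the P0F to P0C comparison had an unadjusted p under 0.05. So had 1714 and 1941 of all 11917 genes tested. With adjustment 0.554% of all genes were called higher and 0.151% lower in P0C than in E16C tumours. In P0F against P0C tumours 0.738% were called higher and 0.445% lower. Dkk4, Notum, Wif1, Wnt1, Wnt6, Wnt8b and Wnt16 were too dim to test here.

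Sfrp2, a secreted antagonist, had the largest difference among the members in both comparisons. It was at 9.46, 9.08 and 8.19 in the P0C tumours and 11.39, 11.52 and 9.86 in the E16C tumours, with no overlap. The Sfrp2 log2 difference was -2.01 ± 0.51 (SE, adjusted p = 0.131). The P0F tumours had 11.17, 11.63 and 10.48, a log2 difference of 2.19 ± 0.51 (SE, adjusted p = 0.0803) over P0C. Neither passed as fitted. Both passed without E16C tumour 3, with differences of -2.55 (adjusted p = 0.0323) and 2.19 (0.0365), and with the replicate number as a block (adjusted p = 0.0393 and 0.038). E16C tumour 3 is in neither group of P0F against P0C, so leaving it out changed only the spread there. The replicate numbers do not pair the samples. Wnt5a was at 8.74, 9.48 and 9.33 in P0F and 6.80, 7.11 and 7.27 in P0C tumours, a log2 difference of 2.13 ± 0.64 (SE, adjusted p = 0.151), and passed without E16C tumour 3 (adjusted p = 0.0094). Its difference stayed at 2.13 in that fit, where again only the spread changed. Dkk3 had 7.68, 6.82 and 6.99 in P0C and 8.81, 9.68 and 6.97 in E16C tumours, a log2 difference of -1.32 ± 0.60 (SE, adjusted p = 0.358), and passed without E16C tumour 3 at -2.09 (adjusted p = 0.0392). Wnt3 had 5.97, 6.68 and 6.24 in P0F and 7.39, 6.33 and 7.78 in P0C tumours, a log2 difference of -0.87 ± 0.35 (SE, adjusted p = 0.27), and passed without P0C tumour 2 at -1.29 (adjusted p = 0.0454). Mbp, a myelin gene of oligodendrocytes, was at 10.33 to 12.19 in the P0C tumours, against 7.11 to 8.58 in the E16C tumours, and its part in these differences was not tested.

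The remaining members with an unadjusted p under 0.05 did not pass either. In P0C against E16C tumours these gave 0.65 ± 0.22 for Wnt7b (adjusted p = 0.236), 0.93 ± 0.33 for Fzd8 (adjusted p = 0.25), 0.75 ± 0.30 for Lef1 (adjusted p = 0.318) and 0.84 ± 0.35 for Wnt3 (adjusted p = 0.334). In P0F against P0C tumours the value was 0.98 ± 0.33 for Lrp5 (adjusted p = 0.194). Among the feedback genes Axin2 was at 7.41, 7.80 and 8.67 in P0F, 7.00, 7.98 and 7.86 in P0C and 8.60, 7.75 and 6.67 in E16C tumours, and Nkd1 at 8.47, 8.53 and 9.10 in P0F, 8.11, 8.05 and 9.09 in P0C and 8.85, 8.90 and 7.48 in E16C tumours. For both genes the ranges of the 3 origins overlapped. Lgr5 stood at 8.64, 8.12 and 8.55 in P0F, 7.46, 7.63 and 9.74 in P0C and 8.42, 6.07 and 7.26 in E16C tumours, and Apcdd1 at 6.89, 7.83 and 6.81 in P0F, 6.25, 7.36 and 7.66 in P0C and 5.84, 7.68 and 6.25 in E16C tumours. The differences of P0C minus E16C tumours were -0.13 ± 0.76 for Sfrp1 (adjusted p = 0.959), 0.50 ± 0.54 for Apcdd1 (adjusted p = 0.721), 0.01 ± 0.43 for Nkd1 (adjusted p = 0.996), -0.06 ± 0.51 for Axin2 (adjusted p = 0.972), 1.02 ± 0.69 for Lgr5 (adjusted p = 0.537), 0.32 ± 0.66 for Rnf43 (adjusted p = 0.87), -0.23 ± 0.20 for Fzd5 (adjusted p = 0.636) and -0.04 ± 0.26 for Wnt7a (adjusted p = 0.967). Those of P0F minus P0C tumours were -0.44 ± 0.76 for Sfrp1 (adjusted p = 0.826), 0.09 ± 0.54 for Apcdd1 (adjusted p = 0.958), 0.28 ± 0.43 for Nkd1 (adjusted p = 0.8), 0.35 ± 0.51 for Axin2 (adjusted p = 0.793), -0.25 ± 0.30 for Lef1 (adjusted p = 0.733), 0.16 ± 0.69 for Lgr5 (adjusted p = 0.938), -0.42 ± 0.66 for Rnf43 (adjusted p = 0.804), 0.02 ± 0.20 for Fzd5 (adjusted p = 0.972) and 0.42 ± 0.26 for Wnt7a (adjusted p = 0.471).

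**Figure D4:**
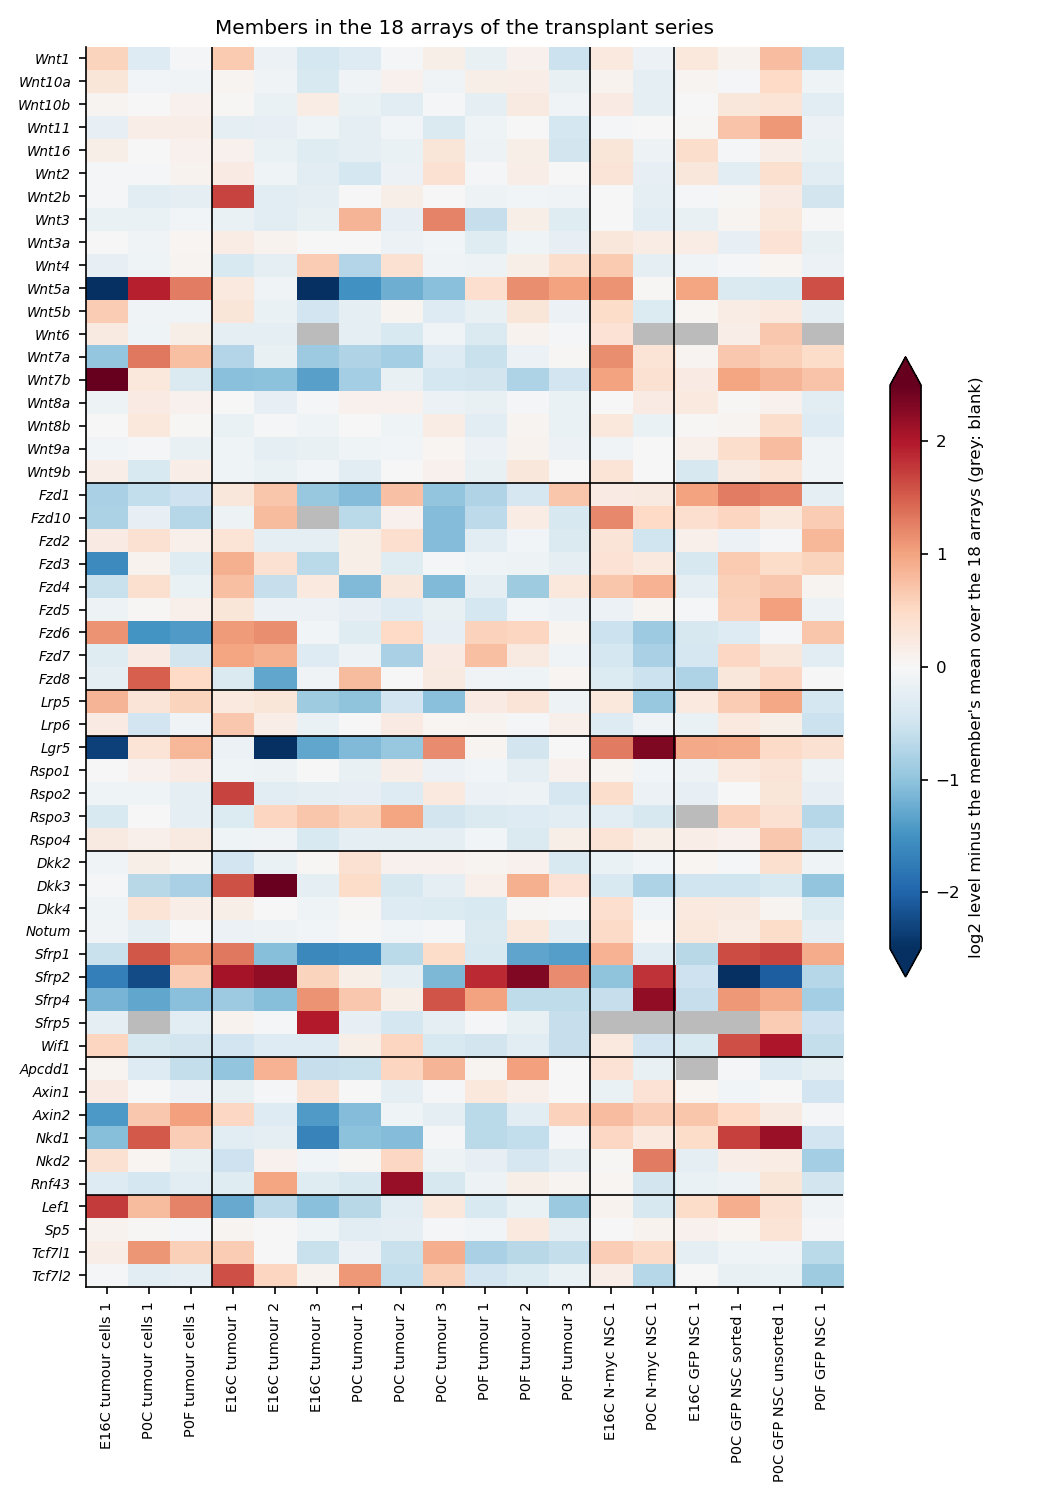
Log2 level of the 54 members (rows, by role) in the 18 arrays of the transplant series (columns), as a difference from each member's mean over those arrays, red above it, blue below it and grey blank. Lef1 is above its mean in all 3 tumour cell cultures, and Nkd1 and Wif1 are highest in the 2 P0C GFP NSC arrays.

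Orthotopic tumours were next set against the GFP NSCs with the origin as a term in the model. Tumours had more Sfrp2 and less Wnt7b, Lef1 and Nkd1 than the stem cells. The tumours are tissue with N-myc(T58A) and the GFP NSCs are cultures without it. The transgene, transplantation and culture therefore cannot be told apart in this comparison. Of 50 members tested 1 was higher and 3 lower. Among all genes 4.26% were called higher and 7.3% lower. Without adjustment 16 of the members had a p under 0.05, as had 3406 of all 12175 genes tested. Sfrp2 was at 11.39, 11.52, 9.86, 9.46, 9.08, 8.19, 11.17, 11.63 and 10.48 in the E16C, P0C and P0F tumours, 3 of each in that order, and at 8.80, 6.10, 7.25 and 8.60 in the E16C, sorted P0C, unsorted P0C and P0F GFP NSCs. The Sfrp2 log2 difference was 2.38 ± 0.61 (SE, adjusted p = 0.0209). Only 3 of the 4 GFP arrays had Sfrp2 above 6.30, so it reached the test through the tumours. Wnt7b was at 6.97, 7.00, 6.66, 7.17, 7.83, 7.58, 7.55, 7.25 and 7.54 in the tumours and 8.23, 8.99, 8.86 and 8.72 in the GFP NSCs, in the same order, a log2 difference of -1.40 ± 0.40 (SE, adjusted p = 0.0338), without overlap. For Lef1 the tumours had 6.72, 7.33, 6.94, 7.29, 7.72, 8.24, 7.61, 7.81 and 7.06 and the GFP NSCs 8.43, 8.89, 8.37 and 7.90. The Lef1 log2 difference was -0.95 ± 0.27 (SE, adjusted p = 0.036). Nkd1 gave 8.85, 8.90, 7.48, 8.11, 8.05, 9.09, 8.47, 8.53 and 9.10 in tumours and 9.61, 10.85, 11.31 and 8.66 in GFP NSCs. The Nkd1 log2 difference was -1.49 ± 0.46 (SE, adjusted p = 0.0469). By origin the Nkd1 means differed by -1.20 in E16C, -2.66 in P0C and 0.04 in P0F.

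These 4 calls rested on few arrays. The labels do not say whether the sorted and unsorted P0C GFP arrays share a culture, and the model counted them as separate samples. Leaving out each of the 18 arrays in turn kept the Sfrp2 call in 15 fits (adjusted p between 0.00405 and 0.0846), Wnt7b in 14 (0.00105 to 0.103), Lef1 in 12 (0.0219 to 0.129) and Nkd1 in 6 (0.0115 to 0.166). Sfrp2 was lost without the sorted P0C, unsorted P0C or P0F GFP array (adjusted p = 0.0846, 0.0502 and 0.0564). Wnt7b was lost without any of these (0.103, 0.0917 and 0.0791) and without P0C tumour 1 (0.0548). Lef1 was lost without either P0C GFP array (0.129 and 0.076), the E16C GFP array (0.0946), P0C tumour 1 (0.0609), E16C tumour 3 (0.0513) or P0F tumour 3 (0.0525). Nkd1 missed the threshold in 12 of the 18: without either P0C GFP array (0.144 and 0.166), the E16C GFP array, either N-myc NSC array, the P0F tumour cells, any P0C tumour, E16C tumour 3 or P0F tumours 1 and 2. With both P0C GFP arrays out none of the 4 was called: their differences were 2.05 for Sfrp2, -1.18 for Wnt7b, -0.78 for Lef1 and -0.70 for Nkd1. Without the forebrain arrays Sfrp2, Wnt7b and Lef1 lost their calls (0.0906, 0.0674 and 0.0615), whereas Nkd1 (-2.06, adjusted p = 0.0373) and Wnt11 (-0.77, adjusted p = 0.0442) were called. With centred arrays Lef1 and Nkd1 were lost (0.0533 and 0.0655). The 2 P0C GFP arrays carried the highest Nkd1 of the 18 arrays, 10.85 and 11.31, and the highest Wif1, 8.15 and 8.56. Without the P0F GFP array, which held photoreceptor genes, 7 members were lower: Fzd1, Lef1, Lrp5, Nkd1, Rspo4, Wnt9a and Wnt11. Of all genes 8.03% were lower in that fit.

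Among the listed pathway genes outside the family 2 of 42 were higher in tumours than in GFP NSCs, Daam2 (2.34 ± 0.49, adjusted p = 0.00853) and Tle1 (1.09 ± 0.18, adjusted p = 0.00195), and 3 were lower, the secreted antagonist Sostdc1 (-1.83 ± 0.45, adjusted p = 0.0177), Btrc (-0.65 ± 0.18, adjusted p = 0.0292) and Tnks (-0.48 ± 0.15, adjusted p = 0.0477). Markers of other cell types differed between these groups as well. The mean level of 5 microglial and macrophage genes was 7.61 to 8.66 in the tumours and 6.29 to 7.63 in the GFP NSCs, and that of 5 endothelial genes 6.84 to 8.61 in the tumours and 6.29 to 6.68 in the GFP NSCs. That of 5 fibroblast and meningeal genes was 6.92 to 8.97 in the tumours and 6.72 to 6.86 in the GFP NSCs. Within that list Dcn was at 9.20 to 10.77 in 8 of the 9 tumours, against 5.51 to 6.74 in the GFP NSCs. The remaining tumour, P0C tumour 3, had Dcn at 6.38. The part of these cell types in the differences was not tested. Other members of this comparison did not pass: -1.50 ± 0.58 for Sfrp1 (adjusted p = 0.109), 0.37 ± 0.41 for Apcdd1 (adjusted p = 0.602), -0.68 ± 0.41 for Axin2 (adjusted p = 0.302), -0.79 ± 0.37 for Wif1 (adjusted p = 0.173), -1.19 ± 0.51 for Lgr5 (adjusted p = 0.139), 0.35 ± 0.40 for Rnf43 (adjusted p = 0.607), -0.48 ± 0.19 for Fzd5 (adjusted p = 0.113) and -0.92 ± 0.31 for Wnt7a (adjusted p = 0.0625).

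N-myc(T58A) in the stem cells before transplantation gave no call. Of 51 members tested 0 were called between the E16C and P0C N-myc NSCs and the GFP NSCs (limma). Among all 12557 genes 0.00796% were called higher and 0% lower. Without adjustment 2 members had a p under 0.05, as had 1066 of all genes tested. Sfrp2 was at 8.31 and 11.13 in the E16C and P0C N-myc NSCs and 8.80, 6.10, 7.25 and 8.60 in the GFP NSCs, in the order above. The Sfrp2 log2 difference was 2.26 ± 0.88 (SE, adjusted p = 0.553). Nkd2 gave 7.65 and 8.93 in N-myc NSCs and 7.40, 7.79, 7.81 and 6.78 in GFP NSCs. The Nkd2 log2 difference was 0.79 ± 0.29 (SE, adjusted p = 0.553). Lgr5 was at 9.86 and 10.91 in the N-myc NSCs, above all 4 GFP NSCs (9.52, 9.50, 9.05 and 8.94). The Lgr5 log2 difference was 1.44 ± 0.73 (SE, adjusted p = 0.616). With 2 arrays against 4 the differences of Nkd1, Rnf43 and Sfrp1 changed sign without the P0C N-myc array, and that of Wnt7a without the E16C one. No member named here passed: -0.56 ± 0.85 for Sfrp1 (adjusted p = 0.909), 0.36 ± 0.57 for Apcdd1 (adjusted p = 0.913), -0.52 ± 0.67 for Nkd1 (adjusted p = 0.881), 0.47 ± 0.60 for Axin2 (adjusted p = 0.881), -0.56 ± 0.40 for Lef1 (adjusted p = 0.725), -0.88 ± 0.53 for Wif1 (adjusted p = 0.687), -0.13 ± 0.57 for Rnf43 (adjusted p = 0.982), -0.42 ± 0.27 for Fzd5 (adjusted p = 0.704) and 0.44 ± 0.44 for Wnt7a (adjusted p = 0.832).

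Tumour cells in culture differed from the orthotopic tumours in 1 member. Lef1, the factor that carries beta-catenin to its targets, was 3.54-fold higher, at 9.72, 8.77 and 9.22 in the E16C, P0C and P0F cultures and 6.72, 7.33, 6.94, 7.29, 7.72, 8.24, 7.61, 7.81 and 7.06 in the tumours, a log2 difference of 1.82 ± 0.30 (SE, adjusted p = 0.00395), with no overlap. Of 51 members tested Lef1 alone was called, and 1.71% of all genes were called higher and 1.93% lower. Without adjustment 11 members had a p under 0.05, as had 2380 of all 12373 genes tested. The call stood in all 18 fits that left out an array (adjusted p between 0.0021 and 0.0362). Leaving out an N-myc or GFP NSC array could not move the difference, which stayed at 1.82, because those arrays are in neither group. The call was lost without the forebrain arrays (difference 1.87, adjusted p = 0.063). Each culture may come from the animal of the tumour numbered 1, and without those tumours the difference was 1.72 (adjusted p = 0.0166).

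Some members were close to the threshold. Wnt7b was at 10.56, 8.28 and 7.66 in the cultures and 6.97, 7.00, 6.66, 7.17, 7.83, 7.58, 7.55, 7.25 and 7.54 in the tumours, a log2 difference of 1.55 ± 0.44 (SE, adjusted p = 0.0622), and was called without the P0F cells (2.20, adjusted p = 0.0341). Sfrp2 was at 7.61, 7.07 and 9.94 in the cultures, against the tumour values given above, a log2 difference of -2.10 ± 0.67 (SE, adjusted p = 0.0926), and was called without the E16C or the P0C N-myc NSC array (adjusted p = 0.0206 in each fit). Neither array is in this comparison, and the Sfrp2 difference stayed at -2.10 in those fits. The E16C culture, which had low Sox2 and high Dcn, differed from the others in several members. It had Wnt7b at 10.56, Lgr5 at 6.24, Axin2 at 6.65 and Wnt5a at 5.72, against 8.28 and 7.66, 8.91 and 9.39, 8.76 and 9.12, and 10.26 and 9.60 in the P0C and P0F cultures. In a fit without it Wnt7a (1.49, adjusted p = 0.0166) and Fzd6 (-1.76, adjusted p = 0.0171) passed as well. Microglial scores were 6.35 to 6.65 and endothelial scores 6.12 to 6.28 in the cultures, below every tumour, and their part was not tested. The other members named throughout gave 1.38 ± 0.64 for Sfrp1 (adjusted p = 0.257), -0.42 ± 0.39 for Apcdd1 (adjusted p = 0.605), 1.00 ± 0.50 for Nkd1 (adjusted p = 0.293), 0.43 ± 0.45 for Axin2 (adjusted p = 0.654), 0.13 ± 0.40 for Wif1 (adjusted p = 0.899), 0.19 ± 0.56 for Lgr5 (adjusted p = 0.895), -0.56 ± 0.43 for Rnf43 (adjusted p = 0.51), 0.17 ± 0.21 for Fzd5 (adjusted p = 0.702) and 0.86 ± 0.34 for Wnt7a (adjusted p = 0.174), none past the threshold. Of the other pathway genes 1 of 42 was called, Daam2 (-2.30 ± 0.54, adjusted p = 0.0318).

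**Figure D5:**
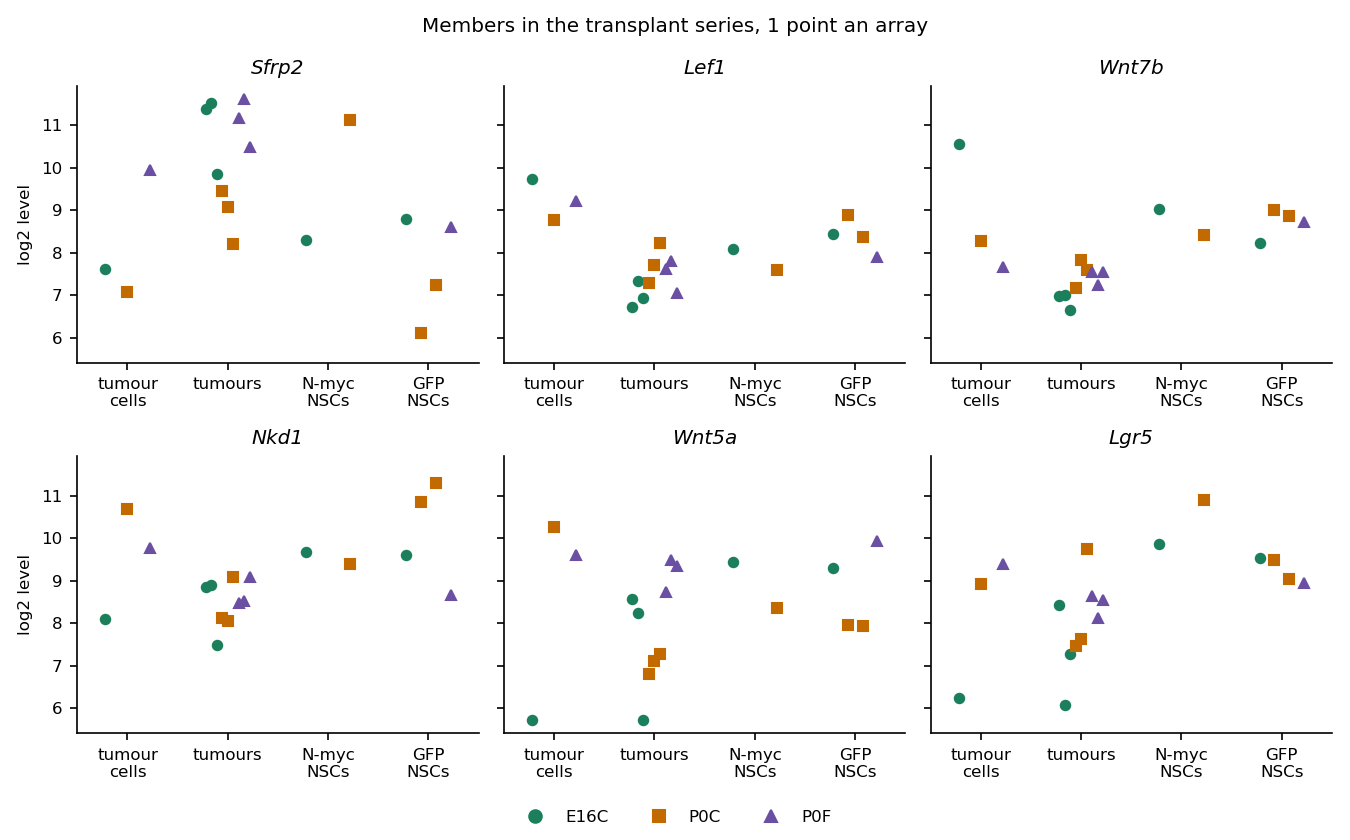
Log2 level (y axis) of Sfrp2, Lef1, Wnt7b, Nkd1, Wnt5a and Lgr5 in the tumour cells, tumours, N-myc NSCs and GFP NSCs of the transplant series, 1 point an array, with the shape and colour giving the origin; levels of different genes are not to be compared. Lef1 in the 3 tumour cell cultures lies above all 9 tumours, and Wnt7b in the 9 tumours lies below all 4 GFP NSC arrays.

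Orthotopic and GTML tumours were labelled with different kits, so that model and protocol cannot be told apart and no test was made. Side by side, Sfrp1 was at 9.18, 6.79, 6.24, 6.31, 7.19, 8.31, 7.47, 6.53 and 6.48 in the orthotopic tumours, with a GTML median of 6.54, and Sfrp4 at 6.27, 6.11, 8.30, 7.85, 7.33, 8.75, 8.18, 6.55 and 6.55, with a GTML median of 9.40.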

How the data were processed

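Affymetrix array data of 56 samples were used as the log2 values the authors deposited, made with RMA and annotated to mm9 per the submitters' processing notes. The table holds 17831 probes with values from 2.37 to 14.88, of which 3.12% are blank, by a rule no source used here states, and blanks stayed missing. Of the probes 15620 carried 1 gene symbol, 1370 several and 841 none, and each gene was read from its brightest single-symbol probe, which gave 15224 genes. The number of arrays limits the precision. Groups were taken from titles and source names.

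Differences were fitted per gene with limma 3.58.1 (R 4.3.3), lmFit and eBayes, with Benjamini-Hochberg adjustment over all genes tested and a threshold of 0.05. The filter asked for a level over 6.30 (percentile 25 of the table) in a number of arrays no smaller than the smallest group. GTML tumours and P7 cerebella were fitted together, the 9 orthotopic tumours in a second model, and all 18 transplant arrays with the origin as an additive term in the last model, where groups of single cultures borrow the spread of the others. P-values measure the spread between these samples, which for cultures may be technical. The fits were also run on simulated independent normal noise with known shifts added. That noise holds no shared cultures or outlying arrays, so the run cannot speak to them. The highest correlation between any pair of arrays was 0.9968.

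Same-numbered samples did not deviate together (correlations from -0.208 to 0.089 for GTML tumours and P7 cerebella, and from -0.162 to 0.196 between origins), so no block was used. Members called were named by size of difference, with Sfrp1, Apcdd1, Nkd1, Axin2, Lef1, Wif1, Lgr5, Rnf43, Fzd5 and Wnt7a named in every comparison. The members, the other pathway genes and the marker lists were chosen with earlier results of these data known. Alternatives were the filter, quantile normalization, centring, filled blanks, all probes of a gene, eBayes with trend and robust settings, the replicate block and left-out arrays.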

Additional observations from a re-analysis of the deposited data

Results flagged for a closer look

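Among the 5 P7 cerebella a single array lay far from the other 4 for 5 of the 38 members that were tested for this. The share over all genes was not counted, and all but Tcf7l2 point to the same array, so the count is only a description. These were Dkk3 in cerebellum 1 (8.98), Wnt10a in cerebellum 1 (6.80), Lgr5 in cerebellum 1 (8.04), Wnt7a in cerebellum 1 (7.30) and Tcf7l2 in cerebellum 3 (7.23).

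Some members moved one way in every sample of 1 origin and the other way in every sample of another, and the difference between origins was not tested. How many of all genes do so was not counted, so the counts of members given here are only a description. For tumours minus GFP NSCs this held for 11 of the 50 members tested. Differences in E16C and P0F were 1.11 and -0.30 for Fzd6, -0.34 and 0.33 for Wnt2 and -0.32 and 0.15 for Wnt8a. Those in P0C and P0F were -1.65 and 0.57 for Lrp5, -1.72 and 0.16 for Wif1, -0.46 and 0.25 for Wnt10b and -0.38 and 0.22 for Wnt5b. Those in E16C and P0C were 0.048 and -0.34 for Rspo1 and 0.29 and -0.34 for Wnt9b. In E16C, P0C and P0F, Fzd7 differed by 0.93, -0.64 and 0.58 and Rspo4 by -0.36, -0.62 and 0.35. E16C and P0F have 1 GFP array each, and that of P0F held photoreceptor genes.

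For tumour cells minus tumours it held for 6 of the 51 members tested. Differences in E16C, P0C and P0F were -1.02, 1.14 and 1.16 for Axin2 and -0.36, 1.97 and 0.97 for Wnt7a. Those in E16C and P0C were 0.92 and -0.50 for Wif1 and 0.28 and -0.32 for Wnt9b, and those in E16C and P0F -0.68 and 0.091 for Rspo3 and 0.10 and -0.11 for Wnt9a. Each origin has 1 culture, and all the E16C values rest on the culture with low Sox2 and high Dcn.

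The GTML tumour culture, which enters no comparison, lay above all 37 GTML tumours and P7 cerebella for Fzd6 (9.68), Lef1 (9.18), Lgr5 (9.47) and Tcf7l1 (7.97), and below all of them for Fzd8 (6.81) and Sfrp4 (6.07). This is 7.41% of the 54 members above and 3.7% below, against 13.8% and 10.2% of all genes.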

How the results depend on the processing

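In GTML tumours against P7 cerebella the stricter filter (percentile 50) left 5 members higher and 9 lower, with fewer genes tested. As fitted, 14 of the 19 higher and 15 of the 16 lower members had a mean over the 37 arrays under that level. The share of all genes called in the stricter fit is not given here, so these counts are only a description. Without each cerebellum in turn 15 to 19 were higher and 16 lower, with 6290 to 6537 genes called in all. Lgr5 turned to 0.015 under quantile normalization, 0.0405 with centred arrays and 0.0031 without tumours 20, 22, 30 and 31, and ran from -0.147 to 0.0363 without single cerebella. Lef1 was -0.0796 with GTML tumours 1 to 5 only, with and without the replicate block. The higher share of all calls was 57% as fitted, 69.1% centred and 60.7% under quantile normalization. Sfrp5, Wnt6 and Wnt11 lost their calls under quantile normalization, and Fzd2 and Wnt6 with filled blanks.

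The replicate block left 36 genes called in P0C against E16C tumours, against 84 as fitted, with 1 member lower, and 25 in P0F against P0C tumours, against 141, with 1 member higher. The numbers do not pair the samples. Nkd1 turned to -0.0389 under quantile normalization and -0.0584 with centred arrays in P0C against E16C. Without single tumours 27 to 229 genes and 0 to 2 lower members were called there, and differences ran from -0.56 to 0.40 for Axin2, -0.46 to 0.25 for Nkd1, -0.54 to 0.76 for Rnf43, -0.72 to 0.75 for Sfrp1 and -0.19 to 0.18 for Wnt7a. In P0F against P0C 22 to 255 genes, 0 to 2 higher and 0 to 1 lower members were called, with -0.33 to 0.37 for Apcdd1, -0.0049 to 0.62 for Axin2, -0.0512 to 0.13 for Fzd5, -0.25 to 0.90 for Lgr5, -0.86 to 0.44 for Rnf43 and -0.92 to 0.0762 for Sfrp1.

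For tumours against GFP NSCs, leaving out both P0C GFP arrays left 321 genes and the forebrain arrays 911, against 1408, with 0 members higher in each. Members lower numbered 1 with centred arrays and 0 without both P0C GFP arrays, where Wif1 turned to 0.20. Without single arrays 564 to 1553 genes, 0 to 2 higher and 0 to 7 lower members were called. For N-myc against GFP NSCs 4 genes were called with filled blanks and 2 without the forebrain, against 1, and 0 to 10 without single arrays. There, without both P0C GFP arrays, differences turned to 0.13 for Sfrp1, 0.35 for Nkd1, 0.21 for Wif1, 8e-04 for Rnf43 and 0.0538 for Fzd5, and without single arrays ran from -1.10 to 0.11 for Nkd1, -0.49 to 0.26 for Rnf43, -1.53 to 0.51 for Sfrp1 and -0.22 to 1.17 for Wnt7a. For tumour cells against tumours quantile normalization left 294 genes and leaving out the forebrain 51, against 450, with 0 members higher and Lgr5 at -0.19 without the forebrain. Without single arrays 129 to 500 genes, 1 to 2 higher and 0 to 1 lower members were called, with -0.0105 to 1.20 for Axin2, -0.27 to 0.91 for Lgr5 and -0.27 to 0.57 for Wif1. Where no reason is given the cause was not tested.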
